A study of Mus musculus with 6 samples.

Results

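The genes described here are the nuclear-encoded genes of the mitochondrial respiratory chain and ATP synthase. They were taken by name from a table of 55357 genes measured in 6 mouse tumours: symbols that begin with Nduf followed by a, b, c, s or v, with Uqcr, with Cox and a digit from 4 to 8, or with Atp5, and the 4 genes Sdha, Sdhb, Sdhc and Sdhd. The patterns matched 114 rows. Of these, 14 pseudogene rows (symbols with -ps) were left out, and of the repeated symbol Atp5o the row with the higher mean was kept, which left 99 genes. By complex they comprise 41 genes of complex I, 4 of complex II, 8 of complex III, 21 of complex IV and 17 of complex V. The other 8 are Ndufaf1 to Ndufaf8, which fit the name pattern but encode factors that assemble complex I and are not part of it. Ndufa4 and Ndufa4l2 are named after complex I and were placed with complex IV, where the Ndufa4 protein is a subunit.

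The tumours grew under the skin of C57BL/6J mice that had received 250000 KPC1242 cells, a mouse pancreatic ductal adenocarcinoma (PDAC) line. One group of 3 tumours came from mice given 2 mg of folinic acid (FA), a reduced folate, by gavage each day from day 8 to day 12, and the other group of 3 from mice given phosphate-buffered saline (PBS) on the same days. All tumours were taken on day 14, and the study asked what FA does to the tumour microenvironment. The labels give neither age nor sex, and 1 line injected away from the pancreas is the only model. The labels do not state 1 mouse per tumour, so p-values measure the spread between these 6 tumours. The sample names share a prefix within each group, and whatever that prefix marks cannot be told apart from treatment.

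The respiratory chain carries electrons from NADH and succinate to oxygen. Complex I takes them from NADH and complex II from succinate, coenzyme Q passes them to complex III, cytochrome c to complex IV, and complexes I, III and IV pump protons that ATP synthase, complex V, uses to make ATP. Complexes I, III, IV and V join subunits encoded in the nucleus with a few encoded in mitochondrial DNA, while complex II is nuclear throughout. Some complex IV subunits exist as several isoforms, among them pairs in which a form typical of striated muscle stands beside a widely expressed one.

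Values are TPM, an abundance per transcript length that adds up to the same total for each library. Levels of different genes can therefore be compared, but read depth is unknown. In whole tumours, fewer cells of a type and less RNA per cell cannot be told apart. Of the 99 genes, 94 reached a mean of 1 TPM over the 6 tumours and were tested. The other 5 were Ndufs6b, Ndufa11b, Cox8c, Ndufb11b and Cox7b2, and the last 2 were listed at 0 in all 6 tumours. Mean levels of 8 ductal epithelial markers ran from 2.56 to 1680 TPM, and the keratin genes Krt8 and Krt19 were among the abundant ones. Cldn4 was the lowest, between 1.27 and 6.88 TPM, and Epcam was between 26.1 and 111 TPM. Krt8 stood at 1539, 1677 and 1908 TPM with FA and 1448, 1623 and 1476 TPM with PBS (here and below, in the order of replicates 1, 2 and 3). Krt19 stood at 1177, 1248 and 1312 TPM with FA and 1071, 1186 and 1089.6 TPM with PBS. Krt18, the most abundant of the 8, stood at 1672, 1653 and 1766 TPM with FA and 1586, 1829 and 1577 TPM with PBS. Groups overlapped for all 3 keratin genes. Over the 8 markers the FA mean was higher for 7 and lower for 1, and FA replicate 3 was highest for 4 and lowest for 2, Cdh1 and Sox9. FA replicate 3 stood apart from the other tumours. Array weights, which limma sets low for a library that departs from the fit, were 0.217 for it and 1.03 to 2.23 for the other 5, and it was the highest tumour for 8 of 8 fibroblast, 8 of 8 endothelial and 14 of 14 measured skeletal muscle markers.

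The promoter windows were searched for short motifs, and a minority of them held one. RefSeq windows on GRCm38.p6, from 250 bases before to 50 bases after the annotated start, were found for 77 of the 99 genes, as 82 windows. They were searched on both strands for 3 short motifs of factors known to bind promoters of this family: GCATGCGC, the core of nuclear respiratory factor 1 (NRF1), CCGGAAGT for the ETS factor GABP, and AAGATGGC for YY1. NRF1 letters occurred in 12 windows (14.6%), against 2.71% of all 32851 windows and 4.79% of the windows of genes tested. YY1 letters occurred in 11 (13.4%), against 2.75% and 4.17%. GABP letters occurred in 5 (6.10%), against 3.89% and 7.60%. Any of the 3 was present in 27 windows (32.9%), against 8.83% and 15.4%, and 1 window, that of Uqcr11, held both NRF1 and GABP letters. The NRF1 motif is nearly its own reverse complement, so 2 matches on opposite strands can overlap.

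Position differed between motifs. Counted from 0 at the start base, the 11 YY1 matches had a median first base at 23, and 9 of them lay after the start. The 20 NRF1 matches had first bases from -240 to 32, with a median of -49. The 3 windows below show the NRF1 letters in stretches of 60 bases that overlap no annotated exon, for a subunit of complex V, a subunit of complex I and an assembly factor. Each is given 5′ to 3′ on the gene's strand with the matched letters in capitals, and positions are on GRCm38.p6 (RefSeq).
Atp5l, chr9:44920933-44920992, minus strand: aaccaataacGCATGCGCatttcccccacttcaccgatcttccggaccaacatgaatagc
Ndufa6, chr15:82354341-82354400, minus strand: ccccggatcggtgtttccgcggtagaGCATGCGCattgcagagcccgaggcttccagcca
Ndufaf4, chr4:24897946-24898005, plus strand: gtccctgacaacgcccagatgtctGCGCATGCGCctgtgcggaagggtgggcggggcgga
In the Ndufaf4 stretch the capitals are 2 overlapping matches on opposite strands. A match describes these letters and is not evidence that a factor binds there. Of the 3 genes shown, Ndufa6 and Atp5l were highest in PBS replicate 2 and Ndufaf4 in PBS replicate 3. The lowest tumour was FA replicate 3 for Ndufa6, FA replicate 2 for Atp5l and FA replicate 1 for Ndufaf4. The levels of the other genes with the letters were not compared.

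Across the whole chain, FA and PBS tumours had nearly the same transcript levels. All 99 genes together made up 17297, 17738 and 18956 TPM in the FA tumours and 17774, 18159 and 17876 TPM in the PBS tumours, which is 17997 ± 859 against 17936 ± 199 TPM (SD, n = 3 each) and 1.73% to 1.90% of all TPM. The PBS sums lie within the range of the FA sums, and FA replicate 3 holds the highest and FA replicate 1 the lowest. By limma on log2(TPM + 1), with Benjamini-Hochberg adjustment over 15023 genes, 0 of 94 members passed an adjusted p under 0.05, as did 0% of all genes. At an unadjusted p under 0.05 there were 0 members in either direction, where 0.686% of all genes were higher and 0.592% lower in FA. The smallest unadjusted p of a member was 0.103, for Ndufb4c, and every member's adjusted p was 1.00.

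The spread of these genes was narrow. The FA mean was higher for 54 and lower for 40 of the 94, with a median log2 difference (FA minus PBS) of 0.009, where the median of all genes was 0.002. The quartiles were -0.04 and 0.05, against -0.08 and 0.09 for all genes, and 78 of 94 differences (83.0%) were within 0.1 of 0, against 58.3% of all genes and 74.5% of the genes of 50 TPM or more. For 87 of 94 members (92.6%) the 95% interval of the difference lay inside a 1.5-fold change in either direction, against 72.4% of all genes and 90.7% of those of 50 TPM or more. The members are abundant, with a median of 146 TPM against 17.0 for all genes. The median coefficient of variation over the 6 tumours was 5.64%, against 11.9% for all genes and 7.49% for the genes of 50 TPM or more. Differences ran from -0.43 for Cox6c2 to 0.77 for Cox6a2, and both of these genes were below 11 TPM in every tumour.

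**Figure D1:**
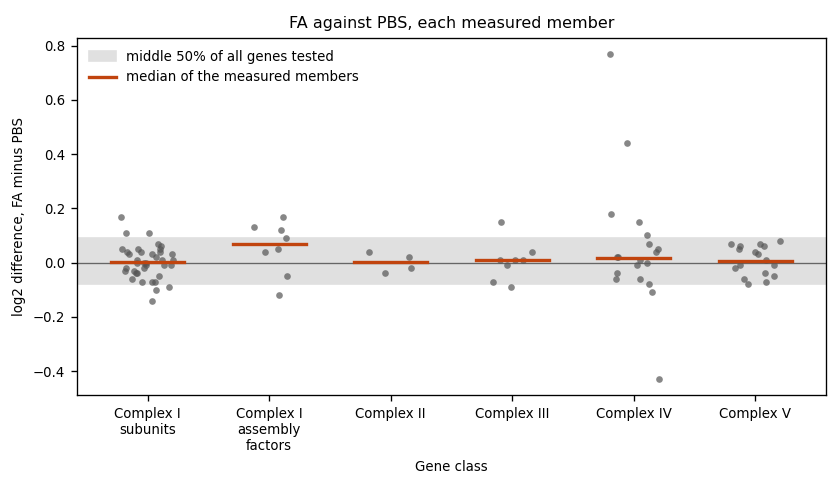
Log2 difference of FA minus PBS (vertical axis, on the log2(TPM + 1) scale) for each of the 94 measured genes, by class (horizontal axis). Points are genes, orange lines class medians and the grey band the middle 50% of all genes tested; most points lie within 0.1 of 0, and those farthest out belong to complex IV.

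Groups that do not overlap were counted next. In 1 of 94 members (1.06%) all 3 FA values were above all 3 PBS values, against 2.48% of all genes, and in 3 (3.19%) they were below, against 2.22%. Neither share is far from that of all genes. The counts moved with single tumours: without FA replicate 3 they were 2 higher (2.13%) and 14 lower (14.9%), where 11% and 6.14% of all genes did not overlap. Leaving out each other tumour gave from 1 to 8 higher (1.06% to 8.51%, against 4.23% to 9.01% of all genes) and from 6 to 9 lower (6.38% to 9.57%, against 4.80% to 9.69%).

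The higher gene was Ndufb4c (ENSMUSG00000083380), named as a copy of the complex I accessory subunit gene Ndufb4. It stood at 141, 146 and 155 TPM with FA and 135, 138 and 135 TPM with PBS, a log2 difference of 0.11 ± 0.06 (SE). Its lowest FA value exceeded the highest PBS value by less than the FA values differed among themselves. Ndufb4 itself was at 19.2, 20.9 and 24.9 TPM with FA and 21.3, 19.5 and 21.0 TPM with PBS, and its groups overlapped. Ndufb4c held 86.2% to 88.0% of the sum of both genes in each tumour, and since near-identical copies can share reads, how the sum is split between them is uncertain.

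The 3 lower genes belong to 3 complexes. Ndufab1 (ENSMUSG00000030869), the mitochondrial acyl carrier protein that is also a subunit of complex I, was at 80.7, 82.1 and 78.0 TPM with FA and 83.1, 83.6 and 82.2 TPM with PBS. Uqcrh (ENSMUSG00000063882), the hinge protein of complex III, was at 359, 363 and 360.02 TPM with FA and 376, 389 and 385 TPM with PBS. Cox7b (ENSMUSG00000031231), a small subunit of complex IV, was at 256, 255 and 235 TPM with FA and 267, 273 and 262 TPM with PBS. Their log2 differences were -0.05 ± 0.06, -0.09 ± 0.05 and -0.11 ± 0.06 (SE), and in each the gap between the groups was small beside their common level. For Uqcrh the gap was wider than the range of the FA values and narrower than that of the PBS values, and its limma p was 0.120 before adjustment.

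**Figure D2:**
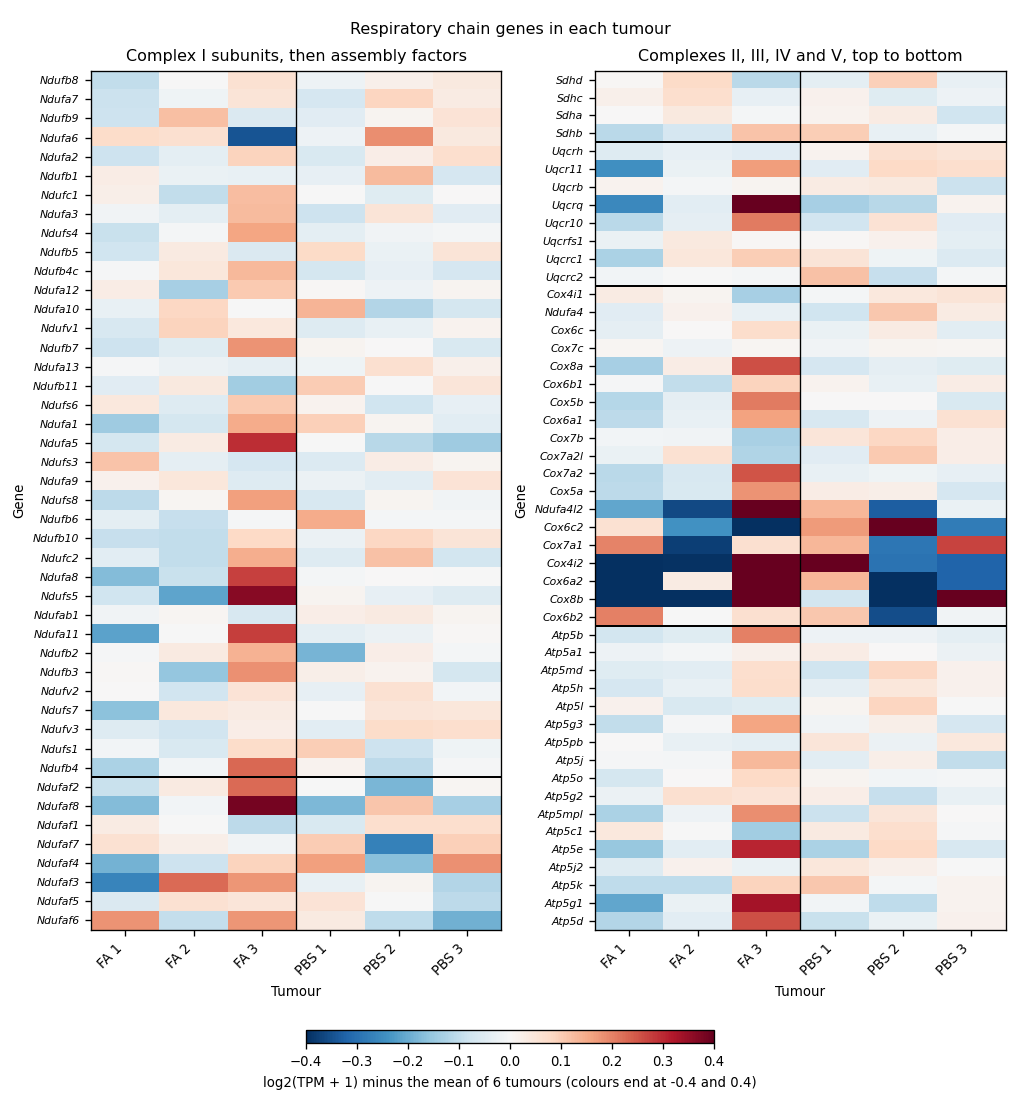
Log2(TPM + 1) of 93 of the 94 measured genes (rows, by complex and mean level) in each tumour (columns), minus the gene's mean over 6 tumours; red is above and blue below that mean, and colours end at 0.4 in size. FA replicate 3 is mostly red and FA replicate 1 mostly blue, while the PBS columns are paler and the strongest colours sit in the isoform rows of complex IV.

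Complex I, the NADH dehydrogenase, had 38 of 41 genes measured. The FA mean was higher for 21 and lower for 17, the median difference was 0.003, and the summed level was 4977 ± 187 TPM with FA and 4982 ± 46.5 TPM with PBS. The core subunits described here, among them those that carry the flavin and the iron-sulfur clusters, had differences from -0.06 to 0.05. Ndufv1, which binds NADH, was at 126, 141 and 136 TPM with FA and 128, 129.6 and 134 TPM with PBS. Ndufs1, which holds several of the clusters, was at 60.5, 58.3 and 64.2 TPM with FA and 65.3, 57.4 and 60.1 TPM with PBS, a difference of 0.00 with a 95% interval from -0.18 to 0.19. Groups overlapped in both.

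Groups also overlapped for 4 more core genes. Ndufs3 was between 100.3 and 114 TPM over the 6 tumours, Ndufv2 between 72.4 and 79.8, and Ndufs7 between 67.9 and 78.8, with FA replicate 1 lowest for Ndufs7. Ndufs8 ranged from 92.9 TPM in FA replicate 1 to 112 TPM in FA replicate 3, and the 3 PBS values fell between those.

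Accessory subunits surround that core, and 30 of them were measured, 16 with a higher and 14 with a lower FA mean. Ndufb8 was the most abundant of the complex, at 299, 319 and 333 TPM with FA and 315, 324 and 328 TPM with PBS. Ndufa7 followed at 233, 245 and 256 TPM with FA and 236, 263 and 253 TPM with PBS. Ndufb9 was at 229.6, 265 and 233 TPM with FA and 236, 245 and 253 TPM with PBS. FA replicate 1 was the lowest of the 6 tumours for each of them. Toward the higher side, Ndufa5 was at 101, 108 and 130.4 TPM with FA and 106, 98.1 and 96.0 TPM with PBS (difference 0.17 ± 0.11, SE), and the difference was 0.07 without FA replicate 3. Ndufb2 was at 79.8, 82.1 and 88.4 TPM with FA and 70.3, 81.6 and 79.6 TPM with PBS, with the groups overlapping.

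Toward the lower side, Ndufa6, which belongs to a family that docks the acyl carrier protein, was at 236, 235 and 177 TPM with FA and 222, 256 and 231 TPM with PBS. Its FA replicate 3 was the lowest of all 6 and the other 5 tumours overlapped, and the difference of -0.14 became -0.002 without that tumour. Ndufb11 was at 120.3, 128 and 113 TPM with FA and 133, 124 and 128 TPM with PBS, a difference of -0.10. Ndufb6 was at 95.3, 91.9 and 97.7 TPM with FA and 109, 97.4 and 97.5 TPM with PBS, a difference of -0.09. For both genes PBS replicate 1 was the highest tumour.

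The 8 Ndufaf genes were of lower level, with mean values from 9.65 to 34.4 TPM, and varied more, with a median coefficient of variation of 10.9%. Their FA mean was higher for 6 and lower for 2, with a median difference of 0.07, and leaving out single tumours gave medians from 0.023 to 0.10. Ndufaf2 was at 32.2, 35.2 and 40.2 TPM with FA and 34.2, 30.1 and 34.5 TPM with PBS. Ndufaf8 was at 24.2, 27.2 and 36.0 TPM with FA and 24.1, 29.7 and 24.9 TPM with PBS, and FA replicate 3 was the highest tumour for both. Ndufaf6, of the lowest level, was at 11.0, 8.93 and 11.0 TPM with FA and 9.86, 8.88 and 8.27 TPM with PBS. Groups overlapped for all 8 genes. Ndufaf4, whose promoter stretch is given above, was at 19.2, 20.7 and 23.4 TPM with FA and 24.7, 19.4 and 25.1 TPM with PBS. Ndufaf1 was at 26.6, 25.9 and 24.1 TPM with FA and 24.9, 27.3 and 27.3 TPM with PBS. These are the 2 with a lower FA mean.

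Complex II, succinate dehydrogenase, links the chain with the tricarboxylic acid cycle, and its 4 genes differed little. Sdha, the flavoprotein, was at 121, 124 and 119.8 TPM with FA and 122, 123 and 114 TPM with PBS. Sdhb, which carries the iron-sulfur clusters, was at 77.7, 80.1 and 90.8 TPM with FA and 89.8, 82.2 and 83.5 TPM with PBS. Both are the parts of the enzyme outside the membrane. The membrane anchor gene Sdhc was at 175, 181 and 169 TPM with FA and 175, 167 and 170.3 TPM with PBS. The other anchor gene, Sdhd, was at 196, 206 and 182 TPM with FA and 190.3, 209 and 192 TPM with PBS. Groups overlapped for all 4, differences ran from -0.04 to 0.04, and the summed level was 574 ± 15.4 against 573 ± 11.2 TPM. FA replicate 3 was the highest tumour for Sdhb and the lowest for Sdhd, and the sum of the complex in that tumour was 98.0% of the PBS mean.

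Complex III, the cytochrome c reductase, had summed levels of 1411, 1499 and 1664 TPM with FA and 1502, 1542 and 1518 TPM with PBS. Both extremes were FA tumours. Uqcrq, a small subunit, was at 166, 194 and 288 TPM with FA and 181, 184 and 201 TPM with PBS, and its difference of 0.15 ± 0.19 (SE) became -0.07 without FA replicate 3. Uqcr10 was at 185, 194 and 231 TPM with FA and 189, 208 and 193 TPM with PBS. Uqcr11 was at 199, 232 and 265 TPM with FA and 228, 249.7 and 247 TPM with PBS. Both were lowest in FA replicate 1 and highest in FA replicate 3.

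Uqcrc1, a core protein gene named after its values were seen, had the same lowest and highest tumours, at 87.9, 99.3 and 103 TPM with FA and 99.6, 94.9 and 92.5 TPM with PBS. The other 4 of the 8 genes did not. Cyc1, a complex III subunit that the name pattern does not take, is not in the sums above and is counted below with the electron carriers. Named after its values were seen, it was at 183, 205 and 235 TPM with FA and 206, 184 and 215 TPM with PBS. It too was lowest in FA replicate 1 and highest in FA replicate 3. Uqcrfs1, the Rieske iron-sulfur protein, stayed between 98.9 and 105 TPM. Uqcrb was at 223, 220.2 and 223 TPM with FA and 226, 227 and 209 TPM with PBS. The other core protein gene, Uqcrc2, was at 91.1, 91.7 and 91.4 TPM with FA and 99.7, 86.1 and 91.2 TPM with PBS, where both the highest and the lowest value were PBS tumours. Over the 8 genes the FA mean was higher for 5 and lower for 3, with a median difference of 0.011.

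**Figure D3:**
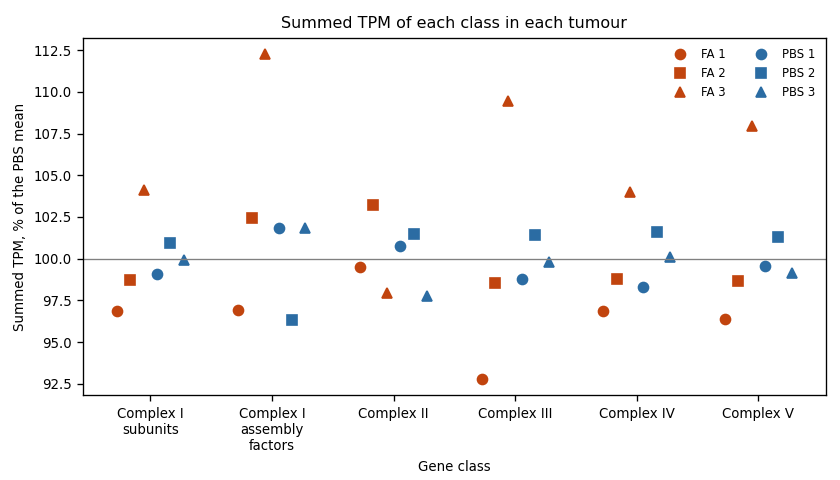
Summed TPM of each class in each tumour, as a percentage of the mean of the 3 PBS tumours (vertical axis), by class (horizontal axis), with FA in orange, PBS in blue and replicates 1, 2 and 3 as circles, squares and triangles. FA replicate 3 lies highest in every class but complex II, at 109% in complex III and 108% in complex V, and FA replicate 1 is lowest in complexes I, III, IV and V, at 92.8% in complex III.

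Complex IV, cytochrome c oxidase, had 19 of 21 genes measured. The 11 widely expressed subunits had differences from -0.11 to 0.10 and a median of 0.008. Cox4i1, the largest nuclear-encoded subunit, was the most abundant of them, at 843, 831 and 752 TPM with FA and 820.5, 849 and 854 TPM with PBS, with FA replicate 3 below the other 5. Ndufa4 was at 499, 522 and 505 TPM with FA and 487, 556 and 527 TPM with PBS. Cox6c was at 448, 460.2 and 482 TPM with FA and 451, 469.96 and 446 TPM with PBS, and the groups of both overlapped. Cox7c was the most even of all 94 genes, between 404 and 412 TPM over the 6 tumours, a coefficient of variation of 0.898%. It is named here after its values were seen.

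Several widely expressed subunits were high in FA replicate 3. Cox8a was at 368, 413 and 484 TPM with FA and 386, 394 and 391 TPM with PBS. Cox7a2 was at 201, 208 and 258 TPM with FA and 212, 215 and 212 TPM with PBS. FA replicate 3 was the highest and FA replicate 1 the lowest tumour for both. Their differences of 0.10 and 0.05 became -0.002 and -0.06 without FA replicate 3. Cox6c2, named as a copy of Cox6c, was at 6.14, 4.79 and 3.96 TPM with FA and 6.70, 10.6 and 4.64 TPM with PBS. Its difference of -0.43 had a 95% interval from -1.10 to 0.24 and became -0.16 without PBS replicate 2, the highest tumour, and its reads may be shared with Cox6c.

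The isoform genes had the largest spread between tumours. Cox6a2 (ENSMUSG00000030785), the form of heart and skeletal muscle, was at 0, 1.21 and 9.22 TPM with FA and 1.37, 0.10 and 0.73 TPM with PBS. Its widely expressed partner Cox6a1 was at 288, 303 and 346 TPM with FA and 296, 305 and 323 TPM with PBS. Cox8b (ENSMUSG00000025488), the muscle form beside Cox8a, was at 0, 0.54 and 8.16 TPM with FA and 0.97, 0 and 1.84 TPM with PBS. FA replicate 3 was the highest tumour for both, FA replicate 1 was listed at 0 for both, and the other values of each group overlapped. The muscle form made up 2.59% of the sum of Cox6a1 and Cox6a2 in FA replicate 3 and at most 0.460% in any other tumour. For Cox8b the share was 1.66% of the sum with Cox8a in FA replicate 3 and at most 0.469% elsewhere.

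The sum of 15 skeletal muscle markers put the 6 tumours in the same order as Cox6a2, but several single markers, Acta1 among them, did not. The sum of 8 endothelial markers had that order too, at 60.3, 82.0 and 242 TPM with FA and 108, 64.4 and 79.7 TPM with PBS. The summed level of 15 muscle markers was 14.7, 178 and 1473 TPM in FA tumours and 218, 17.4 and 157 TPM in PBS tumours, FA replicate 3 was the highest tumour for 14 of 14 measured and FA replicate 1 the lowest for 12. Acta1, the actin of skeletal muscle, was at 0.07, 46.2 and 385 TPM with FA and 49.5, 0 and 43.4 TPM with PBS. In FA replicate 1 and PBS replicate 2 the muscle genes Ckm, Myh4, Mb and Pvalb were all listed at 0. Other markers of the list were not: in these tumours Tnni2 was at 10.6 and 12.3 TPM and Des at 1.73 and 2.40 TPM. The differences of Cox6a2, 0.77 ± 0.82, and Cox8b, 0.44 ± 0.84 (SE), became -0.15 and -0.52 without FA replicate 3, and the muscle markers' median difference went from 0.861 to -0.573. The part of muscle tissue or of other cells in these values was not tested. Cox8b did not show the full order of Cox6a2, since PBS replicate 3 was its second highest tumour at 1.84 TPM. Cox7a1, also a form of striated muscle, did not show it either. It was at 6.81, 4.25 and 6.13 TPM with FA and 6.47, 4.58 and 7.21 TPM with PBS, between 2.01% and 3.29% of the sum with Cox7a2, with FA replicates 1 and 3 inside the range of the PBS tumours. Cox7a1 and Cox8b are also known from brown fat, and the summed level of 8 adipocyte markers was 96.4, 119 and 220 TPM with FA and 134, 125 and 86.1 TPM with PBS, with FA replicate 3 again the highest. In that tumour 150.3 TPM of the sum was Fabp4, which endothelial cells also express, and Adipoq was at 5.01 TPM. FA replicate 3 was the highest tumour for 2 of the 5 measured genes of this list and the lowest for 1, Cidea. Cidea was at 8.89, 7.88 and 5.22 TPM with FA and 8.63, 13.8 and 7.90 TPM with PBS. The part of fat in these values was not tested.

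Cox4i2 and Ndufa4l2 are known as genes induced by low oxygen and as genes of pericytes. Cox4i2 (ENSMUSG00000009876) was at 1.19, 1.24 and 4.58 TPM with FA and 3.22, 1.40 and 1.36 TPM with PBS, highest in FA replicate 3 and next in PBS replicate 1. Ndufa4l2 (ENSMUSG00000040280) was at 17.2, 15.4 and 35.4 TPM with FA and 22.0, 15.7 and 19.6 TPM with PBS, with the same tumours first and second. It made up 6.55% of the sum with Ndufa4 in FA replicate 3 and 2.75% to 4.32% elsewhere.

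The summed level of 10 pericyte and smooth muscle markers had the same tumours first and second, at 136, 157 and 373 TPM with FA and 196, 110 and 136 TPM with PBS, with FA replicate 3 the highest for 9 of 10. These tumours were also first and second for the muscle, endothelial and adipocyte sums given above. So they were for 8 fibroblast markers, at 1901, 2358 and 6525 TPM with FA and 3527, 1832 and 2413 TPM with PBS. For 8 macrophage markers the sums were 550, 592 and 1036 TPM with FA and 662, 589 and 530 TPM with PBS, with the same 2 tumours first. The sums of 6 marker lists thus share this feature. In the adipocyte sum it rests on Fabp4, at 150.3 TPM in FA replicate 3 and 61.0 TPM in PBS replicate 1. The sum of 12 hypoxia-induced genes had another order, at 3133, 2058 and 2263 TPM with FA and 2898, 2734 and 2889 TPM with PBS, so FA replicate 3 was the second lowest. Gene by gene, all 12 had a lower FA mean and 0 were called. Their median difference was -0.315, and leaving out single tumours gave medians from -0.595 to -0.090. FA replicate 2 was the lowest tumour for 9 of them and FA replicate 3 for 3, while FA replicate 3 was the highest for 1. Without FA replicate 3 the differences of Cox4i2, 0.07, and Ndufa4l2, 0.15, became -0.38 and -0.21. The part of any of these cell types in the values was not tested. Of the isoforms known from testis, Cox6b2 was between 0.72 and 1.53 TPM, beside its partner Cox6b1 between 368 and 420.2 TPM, Cox8c was listed at 0.10 TPM in FA replicate 2 and at 0 elsewhere, and Cox7b2 was listed at 0 throughout.

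**Figure D4:**
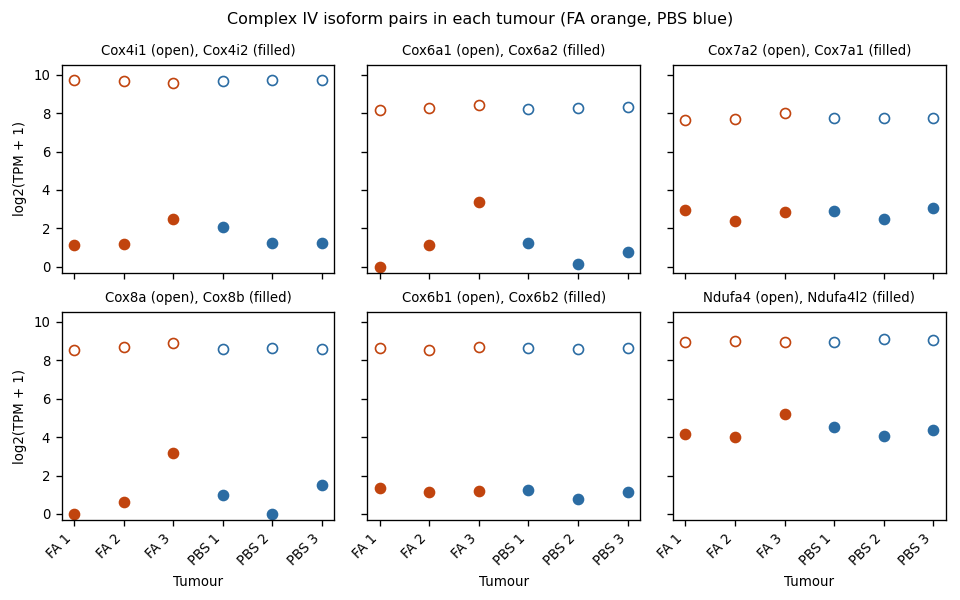
Log2(TPM + 1) (vertical axis) of 6 complex IV gene pairs in each tumour (horizontal axis), FA in orange and PBS in blue, with the widely expressed gene as open and the restricted or induced isoform as filled circles. Open circles form nearly level lines, while Cox6a2, Cox8b, Cox4i2 and Ndufa4l2 peak in FA replicate 3.

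Complex V, ATP synthase, had the highest summed level of the 5 complexes, at 6115 ± 370 TPM with FA and 6054 ± 68.0 TPM with PBS. All 17 of its genes were within 0.08 of 0 in log2 difference, with a median of 0.006. Atp5b, the catalytic subunit, had the highest mean of all 94 genes. It was at 1042, 1059 and 1259.6 TPM with FA and 1081, 1079.7 and 1065 TPM with PBS, so that FA replicate 3 stood above the other 5 and those 5 lay close together. Atp5a1, its partner in the catalytic head, was between 493 and 511 TPM and was not highest in FA replicate 3. The central stalk genes differed in order. Atp5c1 was at 298, 289 and 263 TPM with FA and 297, 303 and 288 TPM with PBS, lowest in FA replicate 3. Atp5d was at 156, 165 and 203 TPM with FA and 159, 167 and 172 TPM with PBS, highest in that tumour.

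The ring through which protons pass is built from 1 mature protein encoded by Atp5g1, Atp5g2 and Atp5g3, and the FA mean was higher for all 3. Atp5g2 was at 295, 314 and 311 TPM with FA and 305, 281 and 294 TPM with PBS. Atp5g1, named like Atp5g3 after its values were seen, was at 149, 169 and 218 TPM with FA and 171, 161 and 174 TPM with PBS. Atp5g3 was at 335, 358 and 401 TPM with FA and 356, 365 and 343 TPM with PBS. Both were lowest in FA replicate 1 and highest in FA replicate 3. Their differences were 0.07, 0.06 and 0.04 in numerical order of the genes, and groups overlapped for all 3. Without FA replicate 3 the FA mean was below the PBS mean for Atp5g1 and Atp5g3 and above it for Atp5g2.

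The 9 genes of the peripheral stalk, membrane part and dimer had a higher FA mean for 3 and a lower one for 6. Atp5md, which helps ATP synthase dimers form, was at 405, 407 and 439 TPM with FA and 396, 444 and 424 TPM with PBS. Atp5j was at 324, 323 and 356 TPM with FA and 316, 331 and 303 TPM with PBS. Groups overlapped for both. Atp5l, whose promoter stretch is given above, was at 366, 346 and 349 TPM with FA and 364, 383 and 361 TPM with PBS. Atp5k was at 195, 195 and 222 TPM with FA and 225, 208 and 211 TPM with PBS. Groups overlapped here too. Without FA replicate 3, Atp5k had a difference of -0.14 and, at 0.0427, the smallest unadjusted limma p of that fit among the members, with an adjusted p of 1.000. Atpif1, the protein that inhibits ATP synthase when the membrane is not energized and which the name pattern does not take, was at 361, 377 and 342 TPM with FA and 343, 373 and 360.04 TPM with PBS, a difference of 0.01 with an interval from -0.15 to 0.16.

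The 6 tumours took unequal shares of the extreme values. FA replicate 3 held the highest value for 47 of 94 genes (50%), against 29.4% of all genes, and the lowest for 14 (14.9%), against 37.5%. FA replicate 1 held the lowest value for 39 (41.5%), against 13.5%, and the highest for 3 (3.19%), against 18.9%. PBS replicate 2 was highest for 21 (22.3%), against 15.0%. The median gene of the chain was 0.095 above the mean of the other 5 tumours in FA replicate 3, where the median of all genes was -0.038, and 0.062 below it in FA replicate 1, where the median of all genes was 0.021. Counted without FA replicate 3, FA replicate 1 was still lowest for 41 (43.6%, against 16.3% of all genes) and PBS replicate 2 was highest for 35 (37.2%, against 19.2%).

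The medians moved when tumours were left out. Without FA replicate 3 the median difference of all 94 genes was -0.038 instead of 0.009, and that of complexes I, III, IV and V was -0.040, -0.043, -0.059 and -0.039. Complex II then stood at 0.031 and the assembly factors at 0.023. Without FA replicate 1 the median of all 94 was 0.027. By size, the FA replicate 3 values farthest above the other 5 among subunits outside the isoforms were those of Uqcrq, Ndufs5 (78.7, 71.8 and 107 TPM with FA and 83.9, 81.3 and 80.2 TPM with PBS) and Atp5g1; Ndufs5 is named after its values were seen.

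**Figure D5:**
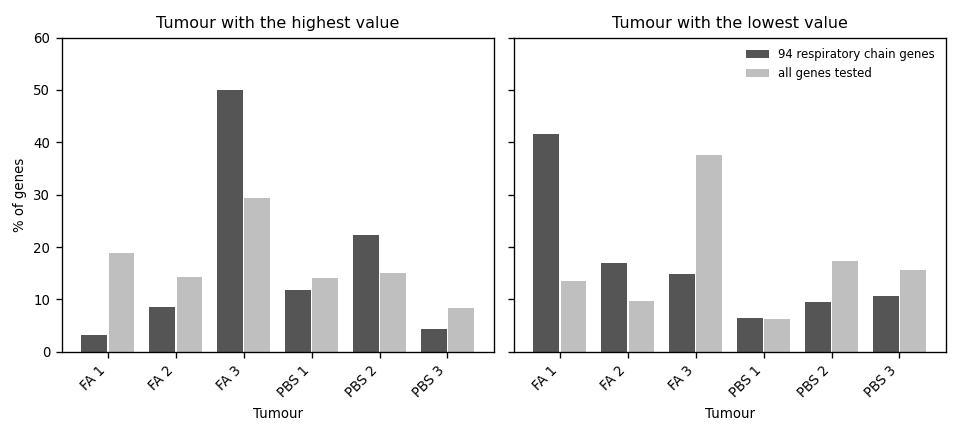
Percentage of genes (vertical axis) that have their highest value (left) or their lowest value (right) in each tumour (horizontal axis), for the 94 respiratory chain genes (dark bars) and all 15023 genes tested (light bars). FA replicate 3 holds the highest value of 50% and FA replicate 1 the lowest of 41.5% of the respiratory chain genes.

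Base composition was set beside the values of each tumour. Across the 94 genes, the GC content of the annotated transcripts (GENCODE vM21) had a Spearman correlation of 0.34 with a gene's distance from the other 5 tumours in FA replicate 3, of -0.42 in FA replicate 1, and from -0.18 to 0.05 in the other 4. Across 14919 genes tested it was 0.18 in FA replicate 3, -0.25 in FA replicate 1, -0.23 in PBS replicate 1 and from 0.01 to 0.05 in the other 3. In FA replicate 3 the median distance was 0.127 for members above the median GC of 51.3% and 0.058 for those below it. In FA replicate 1 it was -0.102 and -0.026. The genes share each library, so these are descriptions, and the part of GC content in the results was not tested.

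The lists of other genes around the chain showed no call either. The 13 subunits encoded in mitochondrial DNA had a higher FA mean in 11 and a lower one in 2, with a median difference of 0.103, and 2 of them were higher with FA without overlap between groups, as were 2.48% of all genes tested. Of these, mt-Nd4l was at 1403, 1359.8 and 1869 TPM with FA and 1358, 1316 and 1087 TPM with PBS. The other, mt-Atp8, was at 11562, 10970.1 and 10497 TPM with FA and 10215, 10448 and 9779 TPM with PBS. The next smallest unadjusted p was that of mt-Cytb, a complex III subunit, at 4745, 5198 and 5790.00 TPM with FA and 5151, 4291 and 4467 TPM with PBS, with overlap. The level of mt-Atp6, named after its values were seen, was far below that of mt-Atp8. It was at 426, 500 and 543 TPM with FA and 462, 587 and 577 TPM with PBS. Its FA mean was lower, with a difference of -0.15, and its groups overlapped. The sum of the 13 was 42071, 42619 and 42506 TPM with FA and 40896, 39116 and 38946 TPM with PBS, so for the sum the groups did not overlap. This depends on mt-Atp8: without it the sum of FA replicate 1 falls below that of PBS replicate 1. For the sum of the nuclear-encoded genes the groups overlapped. Whether the 2 sets of genes differ in their response was not tested. Leaving out single tumours gave medians from 0.055 to 0.122 for the mitochondrially encoded genes.

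Electron carriers and enzymes that feed the chain had a higher FA mean in 7 of 10 measured genes. Cytochrome c (Cycs) was at 122, 127 and 201 TPM with FA and 139.9, 119 and 126 TPM with PBS, highest in FA replicate 3. Prodh, which passes electrons from proline, was at 12.2, 16.1 and 21.4 TPM with FA and 12.9, 12.8 and 12.5 TPM with PBS. Dhodh, an enzyme of pyrimidine synthesis that reduces coenzyme Q, was at 17.1, 18.8 and 18.1 TPM with FA and 16.6, 15.1 and 17.3 TPM with PBS. Groups overlapped for all 3. Of 13 genes of coenzyme Q synthesis, 7 had a higher and 6 a lower FA mean. Coq8a was at 3.40, 5.08 and 9.86 TPM with FA and 3.29, 3.91 and 3.26 TPM with PBS. Coq4 was at 10.4, 11.9 and 13.6 TPM with FA and 10.8, 9.12 and 8.88 TPM with PBS, and both were highest in FA replicate 3. Coq5, a methyltransferase of the pathway, was at 15.9, 16.9 and 17.2 TPM with FA and 14.9, 14.8 and 16.3 TPM with PBS.

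Assembly factors outside the name pattern, 38 measured, had a higher FA mean in 20 and a lower one in 18, with a median of 0.004. One gene in each direction had an unadjusted limma p under 0.05, as had 0.686% of all genes in the higher and 0.592% in the lower direction, and neither passed after adjustment. Lyrm7, which helps insert the Rieske protein into complex III, was at 4.03, 4.29 and 3.18 TPM with FA and 2.58, 2.50 and 2.70 TPM with PBS, a difference of 0.42 ± 0.14 (SE), with a limma p of 0.0224 before and 1.00 after adjustment. Acad9, needed to assemble complex I, was at 52.5, 51.6 and 49.1 TPM with FA and 58.6, 54.0 and 63.5 TPM with PBS, a difference of -0.20 ± 0.08 (SE), with a limma p of 0.0481 before and 1.00 after adjustment. In both genes the groups did not overlap. Cox11, which helps bring copper to complex IV, was at 10.1, 7.42 and 9.40 TPM with FA and 11.2, 9.70 and 10.4 TPM with PBS, with overlap.

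Among 15 measured regulators of mitochondrial gene expression the FA mean was higher in 8 and lower in 7, and groups did not overlap for 3 higher and 1 lower, where the shares of all genes were 2.48% and 2.22%. Gabpb1, a subunit of the factor whose letters were searched above, was at 22.4, 22.0 and 22.0 TPM with FA and 25.8, 23.5 and 25.1 TPM with PBS. Mtfmt, which forms the formylated initiator for mitochondrial translation, a step that takes its formyl group from folate, was at 9.86, 11.6 and 11.3 TPM with FA and 9.34, 8.45 and 9.80 TPM with PBS, a difference of 0.22 ± 0.11 (SE). Its lowest FA value was just above the highest PBS value, and its limma p was 0.0846 before adjustment. Polg, the mitochondrial DNA polymerase, was at 40.1, 42.5 and 43.2 TPM with FA and 39.7, 38.1 and 39.9 TPM with PBS.

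In the tricarboxylic acid cycle and pyruvate dehydrogenase list the FA mean was higher in 10 and lower in 14 of 24 genes, with a median of -0.028. Pdk4, a kinase that inhibits pyruvate dehydrogenase, was at 1.95, 3.16 and 5.76 TPM with FA and 1.97, 1.46 and 2.51 TPM with PBS. Mpc2, a subunit of the pyruvate carrier, was at 38.2, 37.5 and 35.1 TPM with FA and 41.4, 47.4 and 37.7 TPM with PBS. Ogdh, of the oxoglutarate dehydrogenase complex, was at 49.0, 55.1 and 68.7 TPM with FA and 53.5, 47.0 and 48.4 TPM with PBS. Of 7 measured carriers and uncouplers, 2 had a higher and 5 a lower FA mean. The adenine nucleotide carrier Slc25a4, which brings ADP to ATP synthase, was at 352, 346 and 351 TPM with FA and 395, 339 and 363 TPM with PBS. Vdac3, a channel of the outer membrane, had the smallest unadjusted p of the list and was at 179, 170.3 and 162 TPM with FA and 208, 181 and 178 TPM with PBS. Ucp2, of the uncoupling protein family, was at 159, 171 and 229 TPM with FA and 175, 203 and 133 TPM with PBS. Groups overlapped in all genes of these last 2 lists.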

How the data were processed

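RNA of 6 subcutaneous tumours (3 FA, 3 PBS), 1 stranded total RNA library each, was measured per gene. The authors deposited TPM, and per the submitters' processing notes FastQC, STAR, featureCounts and RSEM were used, with no version, genome build or annotation given in the sources used here. Each library sums to the same total, so depth is unknown and no counting interval is given. Columns were matched to tumours by the sample descriptions.

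In R 4.3.3 with limma 3.58.1, log2(TPM + 1) was fitted for 15023 genes, those averaging 1 TPM or more, as FA against PBS with all 6 tumours, no covariate and an empirical Bayes spread with a trend in the mean. The tests were two-sided, with Benjamini-Hochberg adjustment over those genes and a threshold of 0.05. The pseudocount shrinks differences of low genes. Errors are SD beside TPM and standard errors beside log2 differences. The fit was tested on simulated data. Sequence windows, GC content and symbols of promoters came from RefSeq (GRCm38.p6) and GENCODE vM21, matched by symbol or Ensembl identifier.

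The members, gene lists and tests were chosen with earlier results of these data known. Genes named are, per class, the 3 highest and the lowest by mean TPM, up to 3 per direction by unadjusted p, those whose groups do not overlap, the isoforms with their partners, complex II, the core subunits of complex I, Atpif1, and up to 3 genes per list by unadjusted p; 1 gene is not reported here. Of the cell type and hypoxia lists, summed levels stand in for most genes the rule takes. From these lists Acta1, Ckm, Myh4, Mb, Pvalb, Tnni2, Fabp4, Cldn4, Epcam, Krt18, Cdh1 and Sox9 were chosen after their values were seen. Mitochondrial ribosomal proteins and genes of at least 50 TPM were added as comparison sets after seeing the data. Other settings tried were pseudocounts of 0.1 and 0.5, a filter at 5 TPM or none, 3 other scalings, array weights, a fit without the variance trend, a replicate block, and 5 tumours in place of 6.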

Additional observations from a re-analysis of the deposited data

How the results depend on the processing

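By limma, 0 of the respiratory chain genes passed the threshold in any alternative run, and their smallest adjusted p ranged from 0.829, without FA replicate 1, to 1.00. Over all genes the count of higher genes became 2 without the filter, and leaving out single tumours gave 0 to 1 lower gene, the 1 without FA replicate 3. At an unadjusted p under 0.05 there were 2 respiratory chain genes (2.13%, against 2.94% of all genes) without FA replicate 3, 1 (Cox6c2; 1.06%, against 0.845%) without PBS replicate 3, and 0 in the other alternatives. The median difference of complex II moved from 0.001 to 0.039 with array weights, and the median of all respiratory chain genes from 0.009 to -0.023. Leaving out single tumours gave medians from -0.040 to 0.017 for complex I, from -0.025 to 0.031 for complex II, from -0.043 to 0.032 for complex III, from -0.059 to 0.063 for complex IV and from -0.039 to 0.042 for complex V. The cause was not tested. Of 58 named genes tested, 18 changed sign without FA replicate 3, 14 with array weights and 5 to 9 without 1 of the other tumours, 1 (Atp5a1, 0.02) with quantile normalization, and 0 with the other pseudocounts, filters and scalings.

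The labels do not say what the numbers in the tumour names mark. Deviations from the group means correlated at -0.21, 0.05 and -0.02 between the FA and PBS tumours of numbers 1, 2 and 3. Between FA and PBS tumours of different numbers the correlations ran from -0.19 to 0.24. With 3 tumours per group, these correlations cannot decide whether the numbers pair them. With the number as a replicate block, 0 genes were called, as without it, and the class medians were the same, since the block does not move the group means of a balanced design. What read depth limits is unknown, since TPM does not keep it.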

Other observations

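Mitochondrial ribosomal protein genes, which serve the translation of the subunits encoded in mitochondrial DNA, resembled the respiratory chain in FA replicates 1 and 3 but not in PBS replicate 2. Of 78 such genes (symbols beginning with Mrpl or Mrps, a set added after seeing the data), FA replicate 3 was highest for 46 (59.0%) and FA replicate 1 lowest for 31 (39.7%). The shares of all genes were 29.4% and 13.5%. PBS replicate 2 was highest for 10 (12.8%), against 22.3% of the chain and 15.0% of all genes. The FA mean was higher in 44 and lower in 34, with a median log2 difference of 0.015.

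One of the pseudogene rows that the name rule leaves out, chosen after its values were seen, had groups farther apart than any respiratory chain gene. Ndufs5-ps (ENSMUSG00000081824) was at 12.2, 11.4 and 13.5 TPM with FA and 7.10, 1.97 and 4.89 TPM with PBS, a log2 difference of 1.36 ± 0.35 (SE, unadjusted p = 0.00652 and adjusted p = 1.00, limma). Its parent Ndufs5 did not have that order, with 83.9, 81.3 and 80.2 TPM in the PBS tumours against 78.7, 71.8 and 107 TPM in the FA tumours. Reads of a pseudogene and its parent can be shared, so both values are uncertain. Ndufa12-ps, also left out, reached 52.7, 62.7 and 63.5 TPM with FA and 56.5, 50.8 and 58.4 TPM with PBS, against 138, 124 and 146 TPM with FA and 136, 134 and 136 TPM with PBS for Ndufa12.

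Among the subunits encoded in mitochondrial DNA, 2 were listed far below the rest. mt-Co2 was at 51.6, 12.8 and 51.7 TPM with FA and 26.4, 60.7 and 40.2 TPM with PBS and mt-Co3 at 233, 154 and 157 TPM with FA and 41.3, 60.8 and 282 TPM with PBS, while mt-Co1 was at 12957, 12795 and 11915 TPM with FA and 12128, 12306 and 12144 TPM with PBS. The 3 genes encode the core subunits of complex IV, and the cause of the low values was not tested. The difference of mt-Co3, 0.98 ± 0.67 (SE), was the largest of the 13 genes in size, and its groups overlapped.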
